A study of Mus musculus with 14 samples.

Results

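The S100A proteins are small calcium-binding proteins, most of which work as dimers that expose a binding face for partner proteins when calcium rises. Messenger RNAs of 10 of them were followed in mouse colon with and without experimental colitis, namely *S100a8* and *S100a9*, which are best known from myeloid cells, and *S100a1*, *S100a4*, *S100a6*, *S100a10*, *S100a11*, *S100a13*, *S100a14* and *S100a16*, which are known from epithelium or from many tissues. They were chosen by name among genes to which an accession of the array design mapped, and they are 10 of the 19096 genes named on this array. The choice leaves out *S100a3*, *S100a5* and *S100a7a*, which also had a probe, and of which *S100a5* and *S100a7a* were too dim to be tested. Each of the 10 chosen genes was covered by 1 probe, and all 10 probes entered the tests. Of these, 9 were well above background on all 14 arrays, whereas *S100a8* was so on all 6 DSS arrays and on 3 of the 8 water arrays.

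S100A8 and S100A9 form the heterodimer calprotectin, an abundant cytosolic protein of neutrophils and monocytes that withholds zinc and manganese from microbes, is released at sites of inflammation and is measured in stool as a marker of bowel inflammation. S100A10 pairs with annexin A2 at the plasma membrane, S100A11 with annexin A1, and S100A4 with nonmuscle myosin in motile cells. S100A6 binds the calcyclin-binding protein, S100A13 takes part in the unconventional release of FGF1, S100A1 regulates calcium handling in muscle, and S100A14 is known mainly from epithelia.

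To examine these genes, total RNA of whole colons from 14 female C57BL/6 mice aged 4 to 6 months had been hybridized to 1-colour arrays, 1 mouse per array. In Flox mice, the controls, both copies of *Nr3c1*, which encodes the glucocorticoid receptor (GR), were flanked by loxP sites, and GR iKO mice had the same *Nr3c1* copies together with Villin-cre, which is active along the intestinal epithelium from development on. Mice of each genotype drank water or, for 7 days, water with 2.5% dextran sulfate sodium (DSS), an agent that damages the lining of the colon and inflames it, and all were on chow. There were 4 Flox and 4 GR iKO mice on water (replicates 1 to 4), 3 Flox mice on DSS (replicates 1, 2 and 4) and 3 GR iKO mice on DSS (replicates 1, 3 and 4).

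Values below are levels, meaning the log2 signal minus the array's own 75th percentile, and differences of levels. Levels are read within a gene and not between genes, because probes differ in how brightly they report. Summed signals of marker lists add the linear signals of different probes, so the brightest probes weigh most in them. Such sums are read only between groups within a list. A difference was called at a Benjamini-Hochberg adjusted p under 0.05 in limma, adjusted over all 29520 tested probes, with 1 spread per probe estimated over all 14 arrays. At its brightest probe, *Nr3c1* signal in GR iKO colons was 57.3% of that in Flox colons on water (exact permutation p = 0.0286, two-sided) and 56.1% on DSS (exact p = 0.1), each the smallest p that these numbers of mice allow. Its other probes also separated the genotypes, with exceptions. At a dimmer probe on water, GR iKO replicate 2 (−2.64) lay above every Flox colon (−3.24 to −2.93). At the dimmest probe on DSS, Flox replicate 4 (−5.55, not well above background) lay below every GR iKO colon (−5.43 to −4.86). Replicates varied more on DSS, where the median SD of a probe was 0.26 in Flox and 0.34 in GR iKO colons, against 0.18 and 0.17 on water. Signals were lower on the DSS arrays relative to spike-in transcripts, so that scaling to spike-ins moved the median DSS difference of all probes from −0.09 to −2.40 in Flox and from −0.02 to −0.95 in GR iKO colons. This scaling lowers the DSS difference of every probe by the same amount, 2.32 in Flox and 0.93 in GR iKO colons, so that smaller rises turn to falls, and it raises every genotype difference on DSS by 1.21, so that smaller falls turn to rises. Every direction given here is therefore relative to the other transcripts of the same array. In whole colon, more cells of a type and more RNA per cell cannot be told apart.

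Of the 10 genes, 8 had a start-site window in the RefSeq table (build GRCm38.p6), while *S100a10* and *S100a14* had none. The windows of *S100a8*, *S100a9* and *S100a4* are shown because these genes had the largest DSS differences, and because *S100a8* and *S100a9* are direct neighbours on chromosome 3 whose levels moved together. Each runs 5′ to 3′ on the coding strand from 250 bases before to 50 bases after the annotated start, and capitals mark matches to any of 6 motifs. These were TTGCNNAA (C/EBP type), TGANTCA (AP-1 type), TTCNNNGAA (STAT type), the TATA box TATAAA, and the degenerate consensus motifs of NF-kB and of GR, all searched on both strands. No match overlapped another.
S100a8 (chr3:90668821-90669120, + strand): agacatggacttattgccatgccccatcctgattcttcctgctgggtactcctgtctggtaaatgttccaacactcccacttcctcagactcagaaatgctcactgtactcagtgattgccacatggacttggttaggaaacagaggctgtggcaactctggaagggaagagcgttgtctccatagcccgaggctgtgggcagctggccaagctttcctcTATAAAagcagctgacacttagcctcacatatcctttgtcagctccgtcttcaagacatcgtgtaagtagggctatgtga
S100a9 (chr3:90695672-90695971, − strand): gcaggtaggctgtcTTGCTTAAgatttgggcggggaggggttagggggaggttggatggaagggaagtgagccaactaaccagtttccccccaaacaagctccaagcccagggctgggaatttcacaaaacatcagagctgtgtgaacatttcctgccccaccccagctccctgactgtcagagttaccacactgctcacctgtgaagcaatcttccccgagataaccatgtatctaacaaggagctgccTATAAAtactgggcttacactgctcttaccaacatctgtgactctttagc
S100a4 (chr3:90603520-90603819, + strand): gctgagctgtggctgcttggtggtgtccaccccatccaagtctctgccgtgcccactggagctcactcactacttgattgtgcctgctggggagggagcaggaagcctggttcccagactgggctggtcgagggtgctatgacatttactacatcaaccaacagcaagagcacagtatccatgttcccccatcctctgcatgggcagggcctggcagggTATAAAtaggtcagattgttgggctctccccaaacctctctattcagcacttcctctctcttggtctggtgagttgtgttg

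With positions counted from 1 at the annotated start and backwards from −1, TATAAA lay at −30 to −25 in *S100a8*, at −31 to −26 in *S100a4* and at 1 to 6 in *S100a9*. None of the windows of the other 5 genes held it, and 13.6% of 32817 windows of the table did. The *S100a9* window also held a C/EBP-type match at −236 to −229, a motif present in 10.8% of all windows. Elsewhere, *S100a11* held 2 AP-1-type matches, at −136 to −130 and −38 to −32, and 1 of the 2 windows of *S100a16* held an AP-1-type match at −192 to −186 (7.81% of all windows hold that motif). The GR motif (0.222% of windows), the NF-kB motif (4.5%) and the STAT-type motif (8.29%) matched in none of the members' windows, which says only that these letters are not there. For NF-kB this depends on the pattern: a looser consensus searched first matched in the *S100a4* and *S100a11* windows and in a larger share of all windows, and the stricter one was put in its place after those matches had been seen. The GR pattern was also made stricter after a first search, and neither form matched. *S100a1* and *S100a13* start head to head on opposite strands, with windows that share 204 bases.

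The largest responses to colitis were those of *S100a8* and *S100a9*, which rose by 7.26 to 9.76 on the log2 scale over both genotypes. On water, *S100a8* was at −6.57, −6.64, −5.53 and −5.10 in the 4 Flox colons, of which only the last was well above background. On DSS it was at 2.15, 0.98 and 0.76 in Flox colons. Every DSS array thus lay far above every water array. In GR iKO colons, *S100a8* was at −6.88, −5.79, −5.39 and −4.42 on water, the last 2 well above background, and at 5.32, 2.73 and 4.36 on DSS. The groups did not overlap in either genotype. The difference with DSS was 7.26 (SE 0.67, adjusted p 5.67e-06, 153-fold) in Flox and 9.76 (SE 0.67, adjusted p 1.55e-06, 866-fold) in GR iKO colons, sizes that rest on water signals near background.

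*S100a9*, whose probe was well above background on every array, does not have that limit. In Flox colons it was at −3.96, −3.54, −2.41 and −1.78 on water and at 5.93, 5.13 and 4.41 on DSS. In GR iKO colons it was at −3.73, −2.60, −2.26 and −1.17 on water and at 7.86, 6.12 and 7.64 on DSS. Every DSS colon was far above every water colon, and every GR iKO DSS colon was above every Flox DSS colon. The DSS difference was 8.08 (SE 0.67, adjusted p 2.72e-06, 271-fold) in Flox and 9.65 (SE 0.67, adjusted p 1.66e-06, 801-fold) in GR iKO colons. Over 28 alternative settings, the *S100a8* difference ranged from 4.41 to 7.55 in Flox and from 7.03 to 10.46 in GR iKO colons, that of *S100a9* from 5.76 to 8.46 and from 8.72 to 10.19, and both were called in all 28.

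**Figure D1:**
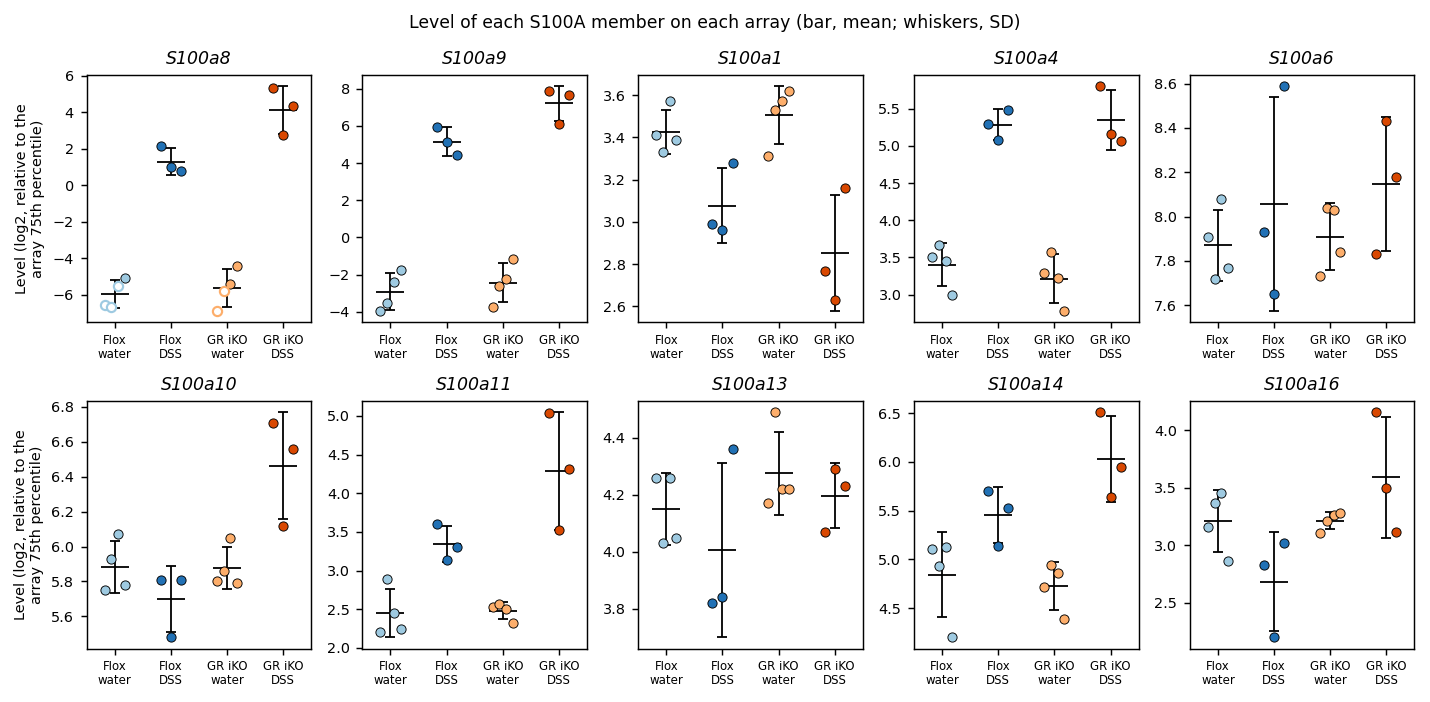
Level of each S100A member (log2, relative to the array's 75th percentile, own scale per panel) on each of the 14 arrays, by genotype and treatment. Points are mice, open points were not well above background, the bar is the mean and whiskers are the SD (n = 4 on water, n = 3 on DSS). *S100a8* and *S100a9* separate DSS from water by several log2 units, *S100a10* is highest in the GR iKO DSS colons, and *S100a6* and *S100a13* overlap in all groups.

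The other 8 genes moved by far less, from −0.53 to 1.89 in Flox and from −0.66 to 2.14 in GR iKO colons, and the 95% confidence intervals of *S100a8* and *S100a9* did not meet theirs, the lowest bound being 5.79 and the highest 2.64. Their median DSS difference was 0.01 in Flox and 0.48 in GR iKO colons, against −0.09 and −0.02 over all tested probes. In Flox colons, 4 of the 10 members were called, all higher, where 52.6% of all tested probes were called and 24.4% were called higher. In GR iKO colons, 7 of the 10 were called, 6 higher and 1 lower, where 44.5% of all probes were called, 22% higher and 22.5% lower. The groups did not overlap for 6 members in Flox (57.4% of all probes) and for 7 in GR iKO colons (46.3%). The share of members called was thus below that of all probes in Flox and above it in GR iKO colons. With only 10 members, neither difference was tested.

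*S100a4*, also called metastasin and fibroblast-specific protein 1, was the third largest riser. It was at 3.50, 3.67, 3.45 and 2.99 in Flox colons on water and at 5.29, 5.08 and 5.49 on DSS, and at 3.29, 3.57, 3.22 and 2.78 in GR iKO colons on water and at 5.81, 5.16 and 5.07 on DSS. The ranges on water and DSS were separate in both genotypes, while the genotypes overlapped within each treatment. The difference with DSS was 1.89 (SE 0.23, adjusted p 3.65e-05, 3.70-fold) in Flox, where it turned to −0.43 under spike-in scaling (1.97 above the median probe), and 2.14 (SE 0.23, adjusted p 2.62e-05, 4.39-fold) in GR iKO colons. Fibroblast markers moved in the same colons. Of 9 tested, 8 were called higher and 1 (*Fap*) lower in each genotype, with a median of 1.29 in Flox and 1.00 in GR iKO colons, and their summed signal relative to the array scale was 116 to 139 in Flox and 107 to 153 in GR iKO colons on water and 281 to 423 and 260 to 325 on DSS. Their part in the *S100a4* result was not tested.

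*S100a11* and *S100a14* followed at a smaller size. *S100a11* was at 2.21, 2.89, 2.45 and 2.25 in Flox colons on water and at 3.60, 3.14 and 3.30 on DSS, against 2.53, 2.57, 2.51 and 2.32 in GR iKO colons on water and 5.04, 3.52 and 4.31 on DSS. The DSS colons of both genotypes lay above all water colons, with a wide spread among GR iKO DSS colons. The difference was 0.90 (SE 0.29, adjusted p 0.0196) in Flox, where it turned to −1.42 under spike-in scaling (0.98 above the median probe), and 1.81 (SE 0.29, adjusted p 0.000364) in GR iKO colons. The call in Flox was lost without Flox DSS replicate 1 (adjusted p 0.0791), without Flox control replicate 1 (0.0502) and under array median scaling (0.76, adjusted p 0.0654). *S100a14* was at 5.11, 4.93, 5.13 and 4.20 in Flox colons on water and 5.70, 5.14 and 5.53 on DSS, and at 4.72, 4.94, 4.86 and 4.39 in GR iKO colons on water and 6.51, 5.64 and 5.95 on DSS. It was called in GR iKO (1.31, SE 0.26, adjusted p 0.00164) and missed the threshold in Flox colons (0.61, SE 0.26, adjusted p 0.0664), where the lowest DSS array lay just above the highest water array.

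*S100a1* was the only member called lower. It was at 3.41, 3.33, 3.57 and 3.39 in Flox colons on water and at 2.99, 2.96 and 3.28 on DSS, and at 3.31, 3.53, 3.57 and 3.62 in GR iKO colons on water and at 2.77, 2.63 and 3.16 on DSS. Water and DSS arrays did not overlap in either genotype. The difference was −0.34 (SE 0.14, adjusted p 0.0596) in Flox, called in 11 of 28 alternative settings, and −0.66 (SE 0.14, adjusted p 0.00272) in GR iKO colons, called in all 28. *S100a13*, its head-to-head neighbour, did not share this (−0.15, SE 0.15, adjusted p 0.426, and −0.08, SE 0.15, adjusted p 0.688), and its 14 levels lay between 3.82 and 4.49.

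*S100a10* and *S100a16* gave values of opposite sign in the 2 genotypes. *S100a10* was at 5.75, 5.93, 6.07 and 5.78 in Flox colons on water and 5.81, 5.48 and 5.81 on DSS, and at 5.80, 5.86, 6.05 and 5.79 in GR iKO colons on water and 6.71, 6.12 and 6.56 on DSS. The 3 GR iKO DSS colons were the highest of all 14. The DSS difference was −0.18 (SE 0.15, adjusted p 0.332) in Flox and 0.59 (SE 0.15, adjusted p 0.00825) in GR iKO colons, where it turned to −0.34 under spike-in scaling (0.61 above the median probe). *S100a16* was at 3.16, 3.37, 3.46 and 2.86 in Flox colons on water and 2.83, 2.20 and 3.02 on DSS, and at 3.11, 3.21, 3.26 and 3.28 in GR iKO colons on water and 4.16, 3.50 and 3.12 on DSS. Neither DSS difference was called (−0.53, SE 0.25, adjusted p 0.0927, and 0.38, SE 0.25, adjusted p 0.24). *S100a6*, or calcyclin, was called in neither genotype, with levels between 7.65 and 8.59 on all arrays and DSS differences of 0.18 (95% confidence interval −0.27 to 0.64) in Flox and 0.24 (−0.22 to 0.69) in GR iKO colons.

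**Figure D2:**
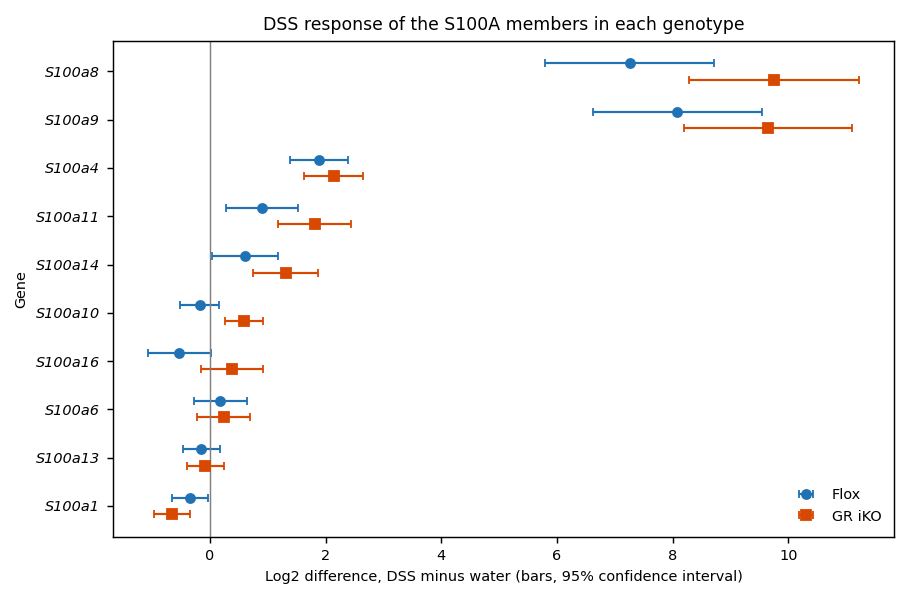
Log2 difference between DSS and water for each S100A member in Flox (circles) and GR iKO (squares) colons, with 95% confidence intervals from limma over 14 arrays. *S100a8* and *S100a9* lie between 7.26 and 9.76, apart from all others, of which *S100a4* is the largest (1.89 and 2.14). Under spike-in scaling *S100a4*, *S100a11* and *S100a14* in Flox and *S100a6*, *S100a10* and *S100a16* in GR iKO colons turn to negative values, as does *S100a6* in Flox.

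Without DSS, none of the members differed by genotype. On water, GR iKO minus Flox differences ran from −0.19 (*S100a4*) to 0.48 (*S100a9*, 95% confidence interval −0.87 to 1.83), limma called 0 of 10 members, 0 had an unadjusted p under 0.05, and every adjusted p was 1. The groups overlapped for all 10. Of all probes, 0.00339% were called, 2.26% did not overlap between the groups, and 278 had an unadjusted p under 0.05. The interval of *S100a8* ran from −1.01 to 1.70, so that a genotype difference of several fold on water was not detectable for the 2 myeloid genes. For the other 8 genes the differences lay between −0.19 and 0.13, with an SE of 0.13 to 0.27.

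On DSS, *S100a8* was higher in GR iKO than in Flox colons by 2.84 (SE 0.72, adjusted p 0.0258, 7.17-fold), and *S100a9* by 2.05 (SE 0.72, adjusted p 0.0785, 4.13-fold) without being called. *S100a10* (0.76, SE 0.16, adjusted p 0.0146, 1.70-fold) and *S100a16* (0.91, SE 0.27, adjusted p 0.0426, 1.88-fold) were also called higher. In all, 3 of 10 members were called, all higher, where 13.2% of all tested probes were called and 6.44% called higher, and the groups did not overlap for 4 members (22.8% of all probes), namely these 3 and *S100a9*. *S100a11* (0.94, adjusted p 0.0622) and *S100a14* (0.58, adjusted p 0.188) had positive differences in which 1 array of a group lay within the range of the other, and *S100a1* (−0.23, adjusted p 0.348), *S100a4* (0.06, adjusted p 0.899), *S100a6* (0.09, adjusted p 0.821) and *S100a13* (0.19, adjusted p 0.445) were closer to 0. Over the 8 genes other than *S100a8* and *S100a9*, the median difference was 0.38, against 0.03 over all probes.

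The 3 calls rest on the spread shared with the water arrays. In a fit on the 6 DSS arrays alone, the differences were the same, but 0 of 10 members and 0% of all probes were called, with adjusted p of 0.226 for *S100a8* and *S100a9*, 0.231 for *S100a10* and 0.282 for *S100a16*, while the unadjusted p was under 0.05 for these 4 (0.00592, 0.0106, 0.0139 and 0.0381). Without Flox DSS replicate 2, 0 members were called, without GR iKO DSS replicate 1 only *S100a10*, and without GR iKO DSS replicate 3 the count was 5, with *S100a9* (2.59, adjusted p 0.0345) and *S100a11* (1.33, adjusted p 0.00609) added. Of all probes, 3.65%, 7.35% and 20.5% were called in these fits, against 13.2% with all 14 arrays. The call of *S100a8* was also lost without GR iKO DSS replicate 4 (adjusted p 0.0572), and that of *S100a16* when any of 10 of the 14 arrays was left out (0.0538 to 0.16), among them Flox DSS replicate 1 (0.0769), Flox control replicates 1, 2 and 3 and each GR iKO control. Over the 28 other settings, the call held in 23 for *S100a10*, in 20 for *S100a8* and in 12 for *S100a16*. The genotype difference was uneven between slides. Within slide 1, which held Flox DSS replicate 1 and GR iKO DSS replicate 3, the genotypes differed by 0.58 in *S100a8* and 0.19 in *S100a9*, whereas within slide 4 (replicate 4 of both) they differed by 3.60 and 3.22.

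**Figure D3:**
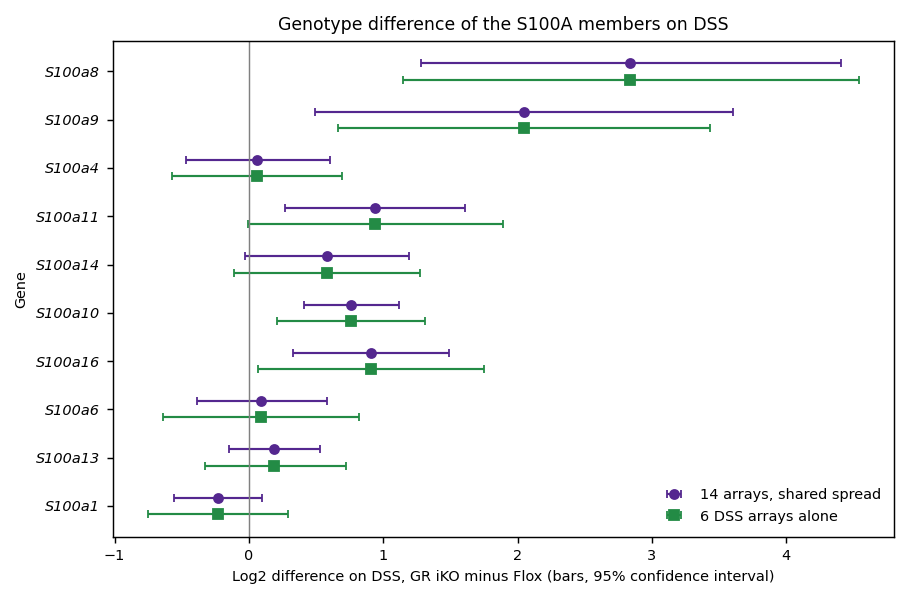
Log2 difference between GR iKO and Flox colons on DSS for each S100A member, with 95% confidence intervals from the fit over 14 arrays (circles) and from the 6 DSS arrays alone (squares). *S100a8* (2.84) and *S100a9* (2.05) have the largest differences and the widest intervals, and those of *S100a4*, *S100a6*, *S100a13*, *S100a14* and *S100a1* include 0 in both fits, as does that of *S100a11* in the fit on DSS arrays alone. The *S100a1* value turns to 0.99 under spike-in scaling.

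In the test of the genotype by DSS interaction, that is, whether the response to DSS differed between genotypes, limma called 0 of 10 members, and 0.112% of all probes. The largest values were 2.50 (SE 0.95, adjusted p 0.182) for *S100a8*, 1.57 (SE 0.95, adjusted p 0.399) for *S100a9*, 0.91 (SE 0.41, adjusted p 0.244) for *S100a11*, 0.90 (SE 0.35, adjusted p 0.189) for *S100a16* and 0.77 (SE 0.22, adjusted p 0.0978) for *S100a10*. Of these, all but *S100a9* had an unadjusted p under 0.05. A difference in response was thus not established for any member in the main setting, although *S100a10* and *S100a11* were called when GR iKO DSS replicate 3 was left out (0.94, adjusted p 0.0218, and 1.30, adjusted p 0.0364). In that fit, 6.97% of all probes were called for the interaction.

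*S100a8* and *S100a9* moved as a pair. Over the 14 arrays their levels correlated at a Pearson r of 0.996, the highest that either gene had with any of 15537 genes compared. Both rose with DSS, so deviations of each array from its group mean were also compared, and there r was 0.96 (14 arrays, both genes on the same arrays and scale). The genes next most like *S100a8* were the chemokine *Ccl4* (r = 0.991), the formyl peptide receptor *Fpr2* (0.991), the cytokine *Il1b* (0.99) and the C-type lectin *Clec4d* (0.99), and those next most like *S100a9* were *Ccl4* (0.989), *Il1b* (0.988), the death receptor *Fas* (0.987) and the C-type lectin *Clec4e* (0.986). The deviations of *S100a8* and *S100a9* had no such likeness to those of the other members, with r from −0.39 to 0.52 over 16 pairs. Among the other 8, deviations went together most for *S100a6* with *S100a13* (r = 0.88), *S100a4* with *S100a14* (0.84) and *S100a10* with *S100a11* (0.79), over 28 pairs that ranged from −0.41 to 0.88.

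Markers of neutrophils moved with this pair. Of 13 tested, 11 were called higher with DSS in Flox and 13 in GR iKO colons, with median differences of at least 3.11 and 5.48 (with 3 markers in each genotype whose water signals were not above background set to their lower bound, or to 0 where no bound can be given), and 8 were called higher in GR iKO than in Flox colons on DSS, with a median difference of 2.06 beside 2.84 for *S100a8* and 2.05 for *S100a9*. Relative to the water arrays, the mean of these markers was 3.03 to 3.79 in Flox and 4.62 to 6.43 in GR iKO DSS colons, and their summed signal was 0.275 to 0.46 in Flox and 0.264 to 0.47 in GR iKO colons on water, and 2.75 to 4.36 and 11.8 to 32.5 on DSS. These means and sums use signals as measured, without the lower bounds. Measured in that way, the median differences with DSS would be 3.70 and 5.98, so the size of the marker means rests in part on water signals not above background. The 6 DSS colons had the same order for *S100a8* and *S100a9* as for the marker mean. Among single markers, *Clec4d* rose by 3.70 and 6.13 and *Retnlg*, a resistin-like gene of granulocytes, by 5.45 and 8.07 in Flox and GR iKO colons, whereas *Mmp9*, a granule metalloproteinase, was called in GR iKO (2.45, adjusted p 0.000212) and not in Flox colons (0.62, adjusted p 0.165). *Cxcr2*, *Mmp8* and *Elane* stayed at background on all water arrays, and *Ly6g* was not measured here. On DSS, *Elane* was well above background on 1 of 3 Flox arrays and on 0 of 3 GR iKO arrays, and it was not tested. The part of neutrophil number in the *S100a8* and *S100a9* results was not tested.

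**Figure D4:**
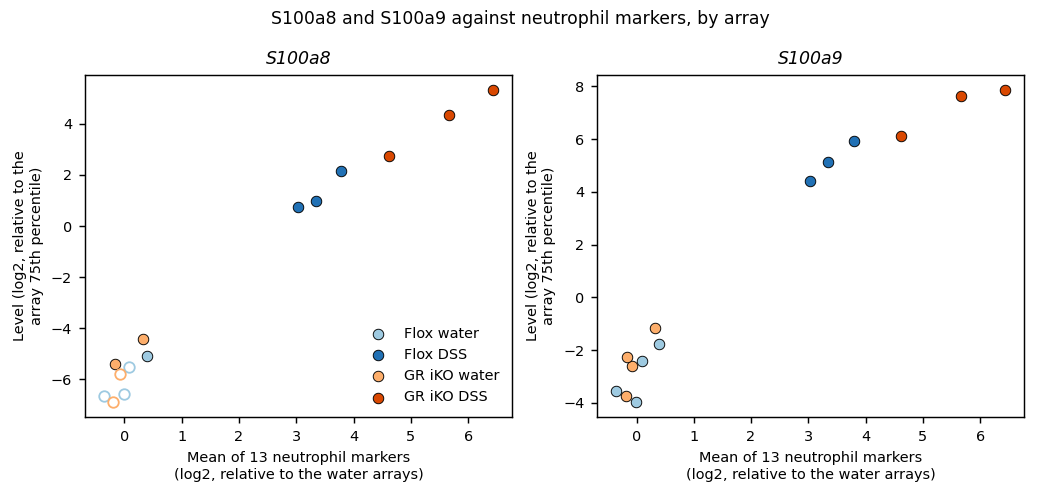
Level of *S100a8* (left) and *S100a9* (right) on each array against the mean of 13 neutrophil markers (log2, relative to the water arrays). Points are mice coloured by group, and open points were not well above background. The marker mean uses signals as measured, also those not above background on water. On DSS, the Flox arrays lie between 3.03 and 3.79 and the GR iKO arrays between 4.62 and 6.43 on the marker axis, and both genes are higher where the markers are.

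Macrophage markers moved less. Of 12, 8 were called higher and 1 (*Mertk*) lower in Flox, and 10 higher and 1 lower in GR iKO colons, with medians of 1.29 and 1.23, and on DSS only *Cd14* (1.96, adjusted p 0.00683) was called higher in GR iKO colons. Their summed signal was 20.4 to 25.5 in Flox and 19.3 to 29.2 in GR iKO colons on water and 35.6 to 66.2 and 50.3 to 99.6 on DSS. Of those with the highest mean level, *C1qc* was at 1.23 and 1.17 and *C1qa* at 1.36 and 1.28 in Flox and GR iKO colons as differences with DSS, both called. The part of macrophages in the results above was not tested.

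Regulators and receptors of the calprotectin genes were then examined. Of the transcription factors known to act in myeloid cells, all 4 with a probe were called higher with DSS in both genotypes, namely *Cebpb* (3.18 in Flox and 3.29 in GR iKO colons), *Cebpd* (2.73 and 2.53), *Stat3* (2.27 and 1.97) and *Spi1* (at least 2.24-fold, adjusted p 0.0479, and at least 2.25-fold, adjusted p 0.0445, from water signals not above background), and 0 of the 4 were called between genotypes on DSS. *Cebpb* was at 1.89, 1.39 and 1.30 in Flox and at 2.02, 1.40 and 1.70 in GR iKO DSS colons, ranges that overlap. Among receptors and binding proteins of S100A8 and S100A9, *Tlr4* was called higher in GR iKO (0.91, adjusted p 0.0044) and not in Flox colons (0.48, adjusted p 0.078), *Bsg*, which encodes basigin, was called lower in both (−0.66 and −0.70), *Nptn* was called higher in both (0.67 and 0.38), *Cd36*, a fatty acid receptor, was called higher in Flox (1.12, adjusted p 0.0146) and not in GR iKO colons (−0.34, adjusted p 0.442), and *Ager*, which encodes RAGE, was not tested for want of signal. *Cd69*, an activation marker of leukocytes that binds the heterodimer, was at −3.27, −3.83 and −3.41 in Flox and −1.76, −1.98 and −1.43 in GR iKO DSS colons, a difference of 1.78 (adjusted p 0.00629). It was the only 1 of the 5 tested that was called higher in GR iKO colons on DSS, while *Cd36* (−1.30, adjusted p 0.0366) and *Nptn* (−0.37, adjusted p 0.0413, and −0.23, adjusted p 0.139, at a second probe) were called lower.

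The partners of the other members were taken in turn. *Anxa2*, the annexin that forms a tetramer with S100A10, gave values much like those of *S100a10*. It was at 5.18, 4.43 and 4.88 in Flox and at 6.03, 5.54 and 5.62 in GR iKO DSS colons, with all water colons between 4.61 and 5.01. Its DSS difference was 0.02 (adjusted p 0.927) in Flox and 0.93 (adjusted p 0.00134) in GR iKO colons, and the genotypes differed on DSS by 0.90 (adjusted p 0.0145), as they did at a second probe (1.03, adjusted p 0.021). *Anxa1*, the partner of S100A11, was called higher in both genotypes (0.54, adjusted p 0.04, and 1.07, adjusted p 0.00114), with a genotype difference on DSS of 0.61 (adjusted p 0.081). *Anxa11*, a partner of S100A6, was called lower in both (−1.21 and −0.53), whereas *Cacybp* was not called (0.04 and 0.17). *Anxa5* (0.63 and 0.67) and *Anxa6* (1.63 and 0.91) were called higher in both, and *Anxa6* was lower in GR iKO than in Flox colons on DSS (−0.76, adjusted p 0.0135). In all, 4 of the 6 genes of the annexin and *Ahnak* list were called higher and 1 lower in Flox, and 5 and 1 in GR iKO colons, and on DSS 2 (*Anxa2* and *Anxa11*, 0.72) were higher and 1 lower in GR iKO colons.

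**Figure D5:**
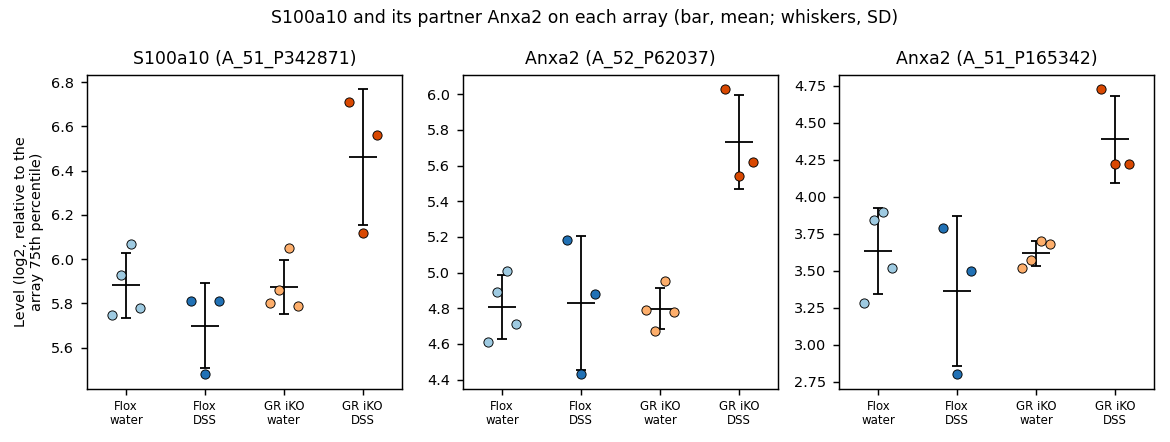
Level (log2, relative to the array's 75th percentile) of *S100a10* and of both *Anxa2* probes on each array, with the mean (bar) and SD (whiskers). In all 3 panels the GR iKO DSS colons have the highest levels, while Flox DSS colons lie in or below the range of the water colons apart from 1 array of the first *Anxa2* probe. Under spike-in scaling the *S100a10* difference with DSS in GR iKO colons turns to −0.34.

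Of the remaining partners, *Myh9*, the heavy chain bound by S100A4, was called higher in GR iKO (0.43, adjusted p 0.00903) and not in Flox colons (0.18, adjusted p 0.197). *Fgf1*, released together with S100A13, was called lower in both genotypes (−1.39 and −1.66), while *Syt1*, which encodes the synaptotagmin of the same complex, was called higher (2.39 and 1.58). *Atp2a2* and *Ryr2*, calcium pump and release channel targets of S100A1 in muscle, were called higher in both genotypes (2.05 and 1.23, and 1.96 and 1.00), the opposite direction to *S100a1*. *Kcnk3*, a potassium channel, was called higher in Flox (1.07, adjusted p 0.0399) and not in GR iKO colons (−0.37, adjusted p 0.476), and was lower in GR iKO colons on DSS (−1.57, adjusted p 0.0341). The phosphatase gene *Ppp5c* was called lower in both genotypes (−1.07 and −0.51), and *Sugt1* in neither (−0.26 and −0.31), although its second probe was called lower in both (−0.46 and −0.53). Over the 10 genes of this list, 4 were called higher and 3 lower in each genotype. On DSS, 4 were lower in GR iKO colons (*Kcnk3*, *Syt1*, *Atp2a2* and *Ryr2*) and 0 higher. The *Atp2a2* probes did not all share this. Mean levels on DSS were 1.47 in GR iKO and 2.13 in Flox colons at its brightest probe. At a dimmer probe they were 0.81 in GR iKO and 0.75 in Flox colons, and at the dimmest −0.79 and −0.36. Smooth muscle markers moved in the same colons, with 6 of 7 called higher with DSS in Flox (median 1.27), 0 of 7 in GR iKO, and all 7 lower in GR iKO than in Flox colons on DSS (median −1.36). Their summed signal was 447 to 708 in Flox and 420 to 696 in GR iKO colons on water and 1050 to 1900 and 357 to 838 on DSS, and their part in these results was not tested.

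Epithelial content was read from 14 markers, all detected. With DSS, 1 was called higher and 5 lower in Flox (median −0.46), and 1 higher and 2 lower in GR iKO colons (median 0.02). On DSS, *Epcam* (0.71), *Cldn3* (0.60) and *Cldn7* (0.69) were called higher in GR iKO colons, 0 were called lower and 11 were not called. The list did not move as a whole. Mean levels on DSS were lower in GR iKO than in Flox colons for *Aqp8* (6.28 against 6.84), *Car1* (5.25 against 5.66) and *Slc26a3* (2.73 against 2.86). The same held for *Lgals4* at its brighter probe only (8.51 against 8.54), and the rest were higher. The median over the list was 0.54, beside 0.76 for *S100a10*, 0.91 for *S100a16* and 0.58 for *S100a14*. Their summed signal was 1740 to 2020 in Flox and 1770 to 2070 in GR iKO colons on water, and 1270 to 2280 and 1540 to 2300 on DSS. The part of epithelial content in the differences of *S100a10*, *S100a14* and *S100a16* was not tested. Of 10 markers of squamous epithelium, which borders the colon at the anus, *Krt4*, *Krtdap* and *Dsg3* were not well above background on any array, and the 5 tested gave 2 higher and 2 lower in Flox and 1 higher and 1 lower in GR iKO colons.

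Outside the 10 members, *S100b*, a marker of enteric glia, rose in Flox from 0.19, 0.26, 0.05 and 0.04 on water to 2.55, 2.31 and 2.34 on DSS (2.27, adjusted p 7.31e-06). In GR iKO colons it went from 0.35, 0.06, 0.14 and 0.03 to 0.38, 1.26 and 1.56 (0.92, adjusted p 0.00469), and on DSS it was lower than in Flox colons by 1.34 (adjusted p 0.00853), with no overlap. *S100g*, which encodes the calcium-transport protein calbindin-D9k, was called lower with DSS in Flox (−3.24, SD 1.22 on water and 1.58 on DSS, adjusted p 0.0105) and not in GR iKO colons (−2.08, adjusted p 0.0849), and *Trpv6*, the epithelial calcium channel, was called lower in both (−4.30 and −4.38). *S100a3* was not called in either genotype (0.15 and 0.73), *S100a5* and *S100a7a* were too dim to be tested, and *S100z* was not measured here.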

How the data were processed

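Colon RNA (500 ng per mouse) was profiled on 14 arrays of 45018 spots. Per the file headers, the authors' scans were read with Agilent Feature Extraction (version 12.0.0.7), and the deposited intensity per spot is background-subtracted on a linear scale. The deposited value table holds log2 values of the same arrays, whose normalization is not given in the sources used here, and it served as an alternative only. Partek 6.6 is named in the submitters' processing notes. The array grid was drawn on mm9, which differs from GRCm38.p6, the assembly of the gene and promoter tables. Probes were therefore matched to genes by accession and not by position, and the positions given above are those of GRCm38.p6.

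The 1639 control spots were left out, non-uniform and population-outlier spots were set to missing, spots of a probe were averaged, and each array's 75th percentile was subtracted from the log2 of its processed intensities. Of 41174 probes, 29520 were tested, which needed a signal well above background on 3 or more of 14 arrays. Symbols came from 28223 of 29245 accession probes that matched the gene table. Means per group came from limma 3.58.1 (lmFit, eBayes) in R 4.3.3, with 5 comparisons, two-sided tests and Benjamini-Hochberg adjustment within each. How the study tested its arrays is in a supplement not used here. The scripts were tested on simulated data. The 75th percentile ranged from 261.9 to 1003 intensity units, 62.6% to 71.3% of probes per array were well above background, arrays of a group correlated at 0.958 to 0.989, and no probe was saturated. The 14 arrays lay on 4 slides, each with both genotypes and both treatments, but not each with all groups. Slide 2 held no GR iKO DSS array and slide 3 no Flox DSS array. A surrogate signal near background shrinks differences of dim probes.

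The members, lists and partner genes were chosen with earlier results of these data known, and no list was tested as a set. By the rule for names, all members and other S100 genes are given, partners, receptors and regulators are counted by list and any may be named, and of each marker list the 3 genes of highest mean level may be. *Fap*, *Mertk*, *Epcam*, *Cldn3*, *Cldn7*, *Aqp8*, *Car1*, *Slc26a3* and markers not above background are named in addition, after their values were seen. Alternatives were other scalings, background corrections, filters, weights and blocks, only the arrays compared, and leaving out each array in turn. The result of 1 further gene list is not reported here.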

Additional observations from a re-analysis of the deposited data

How the results depend on the processing

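In the 28 other settings tried, *S100a8* and *S100a9* kept their direction and their call with DSS in both genotypes, as did *S100a1* and *S100a4* in GR iKO colons, and 0 members were called between genotypes on water. The other counts moved as follows, and the cause was not tested except where the smaller number of arrays sets it. Spike-in scaling called 9 members with DSS in Flox (2 higher and 7 lower, against 4 and 0), 5 in GR iKO colons (3 higher and 2 lower, against 6 and 1, with *S100a11* at 0.88, adjusted p 0.096, and *S100a14* at 0.38, adjusted p 0.421), 10 between genotypes on DSS and 9 for the interaction. Of all probes, it called 89.1%, 55.9%, 73.3% and 62.8% in the same order of comparisons. Normexp background correction with quantile normalization was run on median spot signals because the files hold no mean signal. It called 7 members with DSS in Flox, 7 in GR iKO colons, 5 between genotypes on DSS and 1 for the interaction. The shares of all probes were 52.6%, 43.3%, 14.7% and 1.8%. Array quality weights called 7, 7, 1 and 1 in the same order, against 65.1%, 39.1%, 11.8% and 6.99% of all probes. For the genotypes on DSS, the count was 0 with slide as a fixed block, with weights set separately by treatment and with the 6 DSS arrays alone. These settings called 5.46%, 0.0203% and 0% of all probes. Leaving out 1 array gave 0 to 5 members for the genotypes on DSS and 0 to 2 for the interaction. The shares of all probes called ranged from 3.65% to 20.5% and from 0% to 7.52%. Each gene had a single probe, so the alternative with other probes of a gene could not be run.

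Replicate numbers were not used to pair the mice in the main setting. Of 18 pairs of arrays with the same number, 9 had a correlation of deviations over 0.1 (range −0.227 to 0.31). Arrays with different numbers were not compared in this way, so these values cannot decide whether the numbers pair mice. With a replicate block, 0 members were called between genotypes on DSS (2236 probes against 3903 without it), and *S100a6* turned to −0.04 there and to −0.08 in the interaction. The counts for both DSS responses, for water and for the interaction stayed at 4, 7, 0 and 0.

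Some values changed sign, all but 3 of them for differences that were not called. Under spike-in scaling, the DSS difference in Flox turned to −0.43 for *S100a4*, −2.14 for *S100a6*, −1.42 for *S100a11* and −1.71 for *S100a14*, and that in GR iKO colons to −0.69 for *S100a6*, −0.34 for *S100a10* and −0.55 for *S100a16*. The genotype difference on water turned to −0.09 for *S100a1*, −0.14 for *S100a6*, −0.15 for *S100a11*, −0.05 for *S100a13* and −0.17 for *S100a16*, and *S100a1* turned to 0.99 between genotypes on DSS and 1.08 in the interaction. *S100a6* with DSS in Flox turned to −0.22 with quantile normalization and with the deposited value table, −0.24 with normexp and −0.09 with array quality weights, and on water to −0.07, −0.07 and −0.12 under the former 3. *S100a16* on water was at −0.01 with quantile normalization and the deposited table and −0.06 with array quality weights, *S100a11* on water at −0.01 with normexp, *S100a10* on water at 0.01 with array median scaling, and *S100a4* between genotypes on DSS at 0 with normexp. Leaving out 1 array gave −0.09 to 0.39 for *S100a6* with DSS in Flox. On water it gave −0.06 to 0.76 for *S100a8*, −0.01 to 0.11 for *S100a6*, −0.07 to 0.06 for *S100a10*, −0.05 to 0.18 for *S100a11* and −0.11 to 0.09 for *S100a16*. Between genotypes on DSS it gave −0.17 to 0.20 for *S100a4* and −0.11 to 0.36 for *S100a6*, and in the interaction −0.15 to 0.32 for *S100a6* and −0.03 to 0.24 for *S100a13*. The number of arrays limits the precision of every value, and signals of *S100a8* near background limit its differences.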
